A study of Mus musculus with 14 samples.

Results

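RNA labeled by APEX2-ACTB was compared with RNA labeled by APEX2-GFP in mouse small intestinal organoids (sIOs), using 8 of the 14 libraries of the series: 4 of APEX2-ACTB (ACTB) and 4 of APEX2-GFP (GFP). The libraries were taken by label alone, though with earlier results of these data known, and all 55401 genes of the count table entered. APEX2 is a peroxidase that, given biotin-phenol and a short pulse of H2O2, puts biotin on RNA close to itself, and streptavidin beads then collect that RNA for sequencing. The remaining libraries used the apical bait APEX2-DPP4 (4 libraries) or a mitochondrial APEX2 (2 libraries).

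All 8 libraries came from sIOs of adult C57BL/6J mice grown in Matrigel and carrying a lentiviral fusion with a V5 tag and the reporter ZsGreen1. The ACTB libraries carried APEX2-V5-ACTB, in which the peroxidase is joined to beta-actin. The GFP libraries carried APEX2-V5-GFP, in which it is joined to green fluorescent protein. The study describes both fusions as cytoplasmic and the ACTB fusion as the one with the fainter V5 stain. It also compared these baits by sequencing. It reports that genes differing between them were enriched for annotation terms tied to the cytoskeleton, among them cell adhesion and the cell periphery. Its methods removed poor libraries and corrected for preparation date, and neither step was repeated here. The sources used here do not say that either group came from 1 clone. Both groups had the same biotin-phenol and H2O2 treatment. Nothing states that the 4 replicates of a bait are separate cultures, so p-values measure only the spread between these libraries, which may be technical.

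The intestinal epithelium is a sheet of absorptive enterocytes with scattered goblet (mucus), Paneth (antimicrobial), enteroendocrine (hormone) and tuft cells, all renewed from crypt stem cells. Actin filaments fill the brush border microvilli and ring the cell below the junctions. Thymosins, cofilin and the Arp2/3 complex set how fast filaments form and fall apart, while S100 proteins and annexins are calcium-binding proteins, several of which act at the border between membrane and cortical actin.

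Tmsb4x, the RNA of the actin monomer-binding thymosin beta 4, averaged 432 ± 93.3 CPM in ACTB and 117 ± 38.7 CPM in GFP, and S100a6, a calcium-binding protein, averaged 576 ± 319 CPM in ACTB and 87.7 ± 58.6 CPM in GFP (SD, n = 4 each). Soat1, a cholesterol-esterifying enzyme, averaged 102 ± 33.9 CPM in ACTB and 260 ± 40.5 CPM in GFP. For each of them all ACTB libraries lay on 1 side of all GFP libraries. CPM is the read count per 1000000 reads after scaling by TMM, edgeR's correction for library composition.

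No gene passed the test across all genes. Of 26470 genes tested with edgeR's quasi-likelihood model, 0 (0%) reached both thresholds, an adjusted p below 0.05 and a change of more than 1 on the log2 scale, and the smallest adjusted p was 0.814. At an unadjusted p under 0.05, 852 genes were higher in ACTB (3.22% of those tested) and 634 were lower (2.4%). Averaged over the 8 libraries, 14557 genes reached 1 CPM or more. Of these, 245 had all ACTB libraries above all GFP libraries (1.68%) and 133 had all ACTB libraries below all GFP libraries (0.914%). With so few libraries some genes pass either criterion by chance alone. Whether these counts exceed chance was not tested, so a lack of overlap in a gene below is a description only. DESeq2 called 37 genes higher and 36 lower, and these calls are given below as that tool's alone. Leaving out ACTB replicate 2 gave 10 edgeR calls (1 higher, 9 lower), and leaving out GFP replicate 1 gave 1. Without ACTB replicate 2, 841 genes had ACTB wholly above GFP and 581 wholly below, and without GFP replicate 1 these counts were 773 and 363, with fewer libraries to keep apart. The values below therefore describe which libraries held how much of each RNA, and every gene named had an edgeR adjusted p of at least 0.814 over the 8 libraries.

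Libraries of the same bait differed in depth and in cell-type RNA. Totals were 29508479 to 36388659 counts in ACTB and 9442594 to 36492010 in GFP, so 3 counts in a library stood for 0.0726 to 0.115 CPM in ACTB and 0.0893 to 0.266 CPM in GFP. These limits cover counting error only. Summed brush border enzymes (19 genes) were 744, 9238, 188 and 137 CPM in ACTB replicates 1 to 4, against 325, 6504, 8626 and 1420 CPM in GFP replicates 1 to 4. ACTB replicate 2 thus held far more enterocyte RNA than the other ACTB libraries, and GFP replicate 1 far less than the other GFP libraries. Over highly expressed genes ACTB replicate 2 lay closest to GFP replicate 3 (r = 0.719 across genes) and GFP replicate 1 closest to ACTB replicate 4 (r = 0.791). ACTB replicate 4, GFP replicate 2 and GFP replicate 3 were also closest to a library of the other bait (r = 0.791, 0.651 and 0.719). Only ACTB replicates 1 and 3 and GFP replicate 4 were closest to their own bait (r = 0.755, 0.757 and 0.663). In bulk samples such as these, fewer cells of a type and less RNA per cell cannot be told apart, nor can either be told from a difference in what the baits labeled. Transcripts of mitochondria made up 1.25% to 5.12% of counts in ACTB and 0.76% to 6.31% in GFP.

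The RNA of the bait's own gene did not separate the groups. Actb (beta-actin) had 1668, 1992, 1876 and 2482 CPM in ACTB and 1037, 1405, 2856 and 1257 CPM in GFP, and GFP replicate 3 was the highest of the 8. The means were 2005 ± 346 CPM in ACTB and 1639 ± 826 CPM in GFP (SD, n = 4 each), with a log2 fold change of 0.29 ± 0.40 (SE). Whether reads from the lentiviral ACTB were counted in Actb is not given in the sources used here.

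Tmsb4x, S100a6, S100a11, Pdlim7 and Tagln2 had the smallest p of the genes whose libraries did not overlap and whose mean was at least 10 CPM. Tmsb4x encodes thymosin beta 4, which holds actin monomers (chromosome X, 167207093 to 167209315, minus strand, GRCm38). It had 450, 296, 499 and 485 CPM in ACTB, against 122, 86.7, 170 and 89.6 CPM in GFP. The lowest ACTB library was thus well above the highest GFP library, and the means were 432 ± 93.3 in ACTB and 117 ± 38.7 CPM in GFP (log2 fold change 1.89 ± 0.39, edgeR adjusted p = 0.814). With DESeq2 Tmsb4x had an adjusted p of 0.000998. No library left out moved its log2 fold change outside 1.77 to 2.12.

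Tagln2, transgelin 2, an actin-bundling protein (chromosome 1, 172500047 to 172507380, plus strand), had 803, 227, 597 and 471 CPM in ACTB, against 220, 103, 93.2 and 138 CPM in GFP. The gap was narrow, since ACTB replicate 2 and GFP replicate 1 almost met. Pdlim7, a scaffold of actin stress fibers (chromosome 13, 55495795 to 55513676, minus strand), had 61.9, 35.7, 112 and 171 CPM in ACTB, against 25.2, 19.9, 13.5 and 9.57 CPM in GFP. Here the same replicates were again the nearest pair. The log2 fold changes were 1.92 ± 0.46 for Tagln2 and 2.48 ± 0.56 for Pdlim7.

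**Figure D1:**
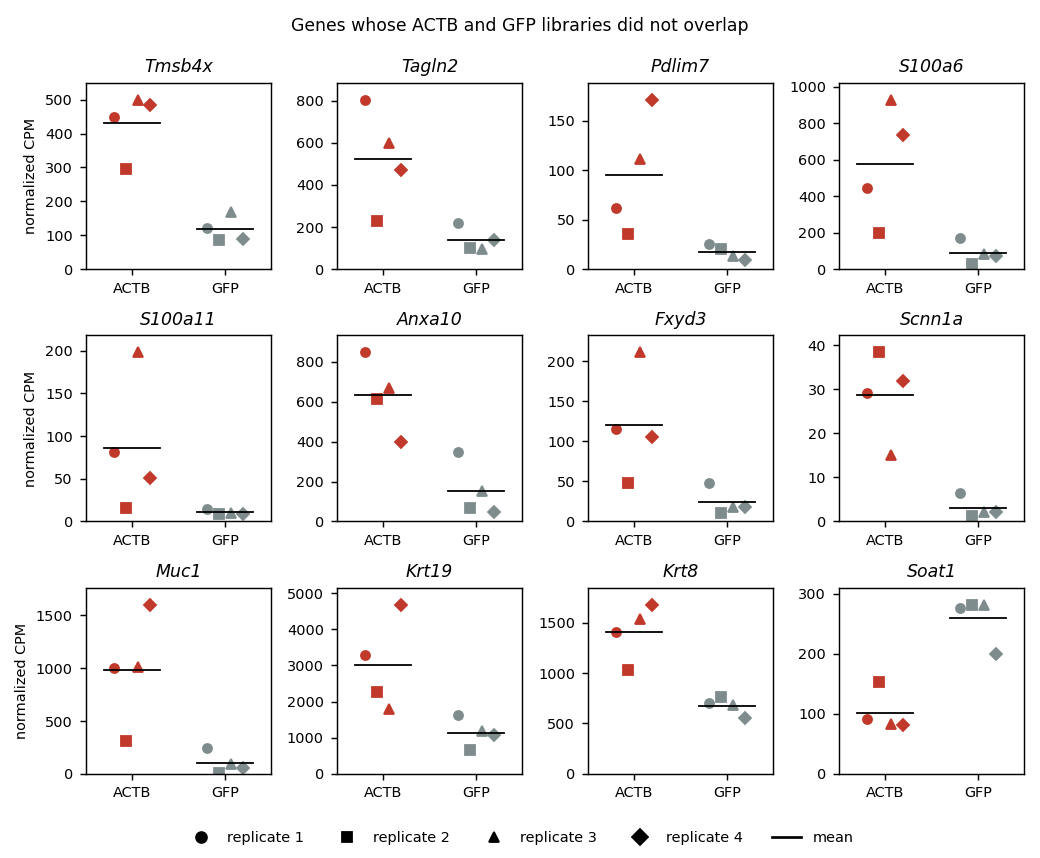
Normalized CPM (linear axes from 0) of 12 genes in the 4 ACTB libraries (red, left) and the 4 GFP libraries (gray, right), with marker shapes for replicate numbers and a bar at the mean. For Tmsb4x the ACTB libraries run from 296 to 499 CPM and the GFP libraries from 86.7 to 170 CPM, and Soat1 is the gene in the set with the opposite order.

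Of the actin cytoskeleton list (45 genes, all tested), 30 had a positive and 15 a negative log2 fold change. At an unadjusted p under 0.05, 4 were higher (3.22% of all genes were) and 2 were lower (2.4% of all genes were). Of the 44 with at least 1 CPM, 4 had ACTB libraries wholly above GFP (against 1.68% of all such genes). The list's median log2 fold change was 0.24, against 0.11 over all genes tested. Besides Tmsb4x and Tagln2, the genes without overlap were Arpc3, a subunit of the Arp2/3 complex, and Cfl1, cofilin 1, which severs filaments. Arpc3 was even across replicates, with 135, 112, 127 and 131 CPM in ACTB and 78.6, 54.4, 61.6 and 75.1 CPM in GFP. Cfl1 had 210, 212, 306 and 204 CPM in ACTB and 78.2, 146, 174 and 129 CPM in GFP. Cotl1, a coactosin-like protein that binds filaments, ran the other way with 40, 83.4, 32.8 and 20.4 CPM in ACTB and 54.9, 98.9, 181 and 133 CPM in GFP, overlapping at ACTB replicate 2. Rdx, radixin, which ties filaments to the membrane, was low everywhere (0.115 to 0.821 CPM in ACTB) except at 45.4 CPM in GFP replicate 1, and its log2 fold change was -4.52 with all libraries and -0.50 without that one.

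Other actins showed no common direction. Actg1, gamma-actin of nonmuscle cells, had 172, 304, 514 and 246 CPM in ACTB and 117, 168, 329 and 166 CPM in GFP. Acta1, skeletal alpha-actin, chosen after its values were seen, had 1.14, 7.94, 0.774 and 1.29 CPM in ACTB, against 0.774, 325, 102 and 32.3 CPM in GFP. GFP replicates 2 to 4 thus carried Acta1 RNA that the ACTB libraries and GFP replicate 1 nearly lacked. DESeq2 called it lower (log2 fold change -5.38, adjusted p = 0.0226) and edgeR did not (adjusted p = 0.814).

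Among S100 genes, 15 of 16 were tested and S100a9 had no count in any of the 8 libraries. The summed S100 level was 798, 531, 1531 and 1114 CPM in ACTB, against 482, 255, 344 and 287 CPM in GFP, with no overlap. S100 proteins are small paired EF-hand proteins that change shape on binding calcium. The list had 10 positive and 5 negative log2 fold changes with a median of 0.95. That median was 0.18 without ACTB replicate 2 and 2.34 without GFP replicate 1, and 7 of the 15 genes lay below 1 CPM on average.

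S100a6, calcyclin, was the S100 gene with the highest level in ACTB replicates 1 to 4 (chromosome 3, 90612882 to 90624181, plus strand). It had 445, 200, 926 and 734 CPM in ACTB, against 169, 29.9, 81.2 and 70.7 CPM in GFP (means 576 ± 319 and 87.7 ± 58.6 CPM, SD, n = 4 each). ACTB replicate 2, the lowest of its group, lay just above GFP replicate 1, the highest of the other. The log2 fold change was 2.72 ± 0.58 (edgeR adjusted p = 0.814, DESeq2 adjusted p = 0.0463), and it stayed between 2.35 and 3.25 with any single library left out.

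S100a11, a partner of annexin A1 (chromosome 3, 93520488 to 93526287, plus strand), had 81.1, 16.2, 198 and 50.5 CPM in ACTB, against 15, 8.72, 10.5 and 8.78 CPM in GFP. Again ACTB replicate 2 was only slightly above GFP replicate 1, while the other ACTB libraries were several fold higher. The log2 fold change was 3.01 ± 0.67 (edgeR adjusted p = 0.814, DESeq2 adjusted p = 0.0262). The promoters of both genes and of Tagln2 are shown because these genes are among the leading ones, and in each ACTB replicate 2 was the lowest ACTB library and GFP replicate 1 the highest GFP library. Each window runs from 250 bases before to 50 after the RefSeq start (GRCm38.p6), 5′ to 3′ on the gene's strand. Capitals mark matches to TGANTCA (an AP-1 motif) or GGAATG (a TEAD motif, on either strand, so also read as CATTCC).

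S100a6 (chr3:90612644-90612943, plus strand): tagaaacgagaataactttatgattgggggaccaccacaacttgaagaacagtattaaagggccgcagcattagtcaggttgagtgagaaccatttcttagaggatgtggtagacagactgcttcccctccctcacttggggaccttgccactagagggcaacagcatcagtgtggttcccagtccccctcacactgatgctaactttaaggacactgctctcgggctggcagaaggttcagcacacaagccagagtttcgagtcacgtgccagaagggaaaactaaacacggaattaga
S100a11 (chr3:93520246-93520545, plus strand): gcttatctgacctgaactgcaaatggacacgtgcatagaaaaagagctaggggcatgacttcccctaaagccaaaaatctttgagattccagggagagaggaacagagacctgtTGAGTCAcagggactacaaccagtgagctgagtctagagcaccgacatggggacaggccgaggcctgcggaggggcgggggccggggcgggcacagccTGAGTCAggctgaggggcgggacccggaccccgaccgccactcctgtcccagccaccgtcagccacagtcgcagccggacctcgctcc
Tagln2 (chr1:172499996-172500295, plus strand): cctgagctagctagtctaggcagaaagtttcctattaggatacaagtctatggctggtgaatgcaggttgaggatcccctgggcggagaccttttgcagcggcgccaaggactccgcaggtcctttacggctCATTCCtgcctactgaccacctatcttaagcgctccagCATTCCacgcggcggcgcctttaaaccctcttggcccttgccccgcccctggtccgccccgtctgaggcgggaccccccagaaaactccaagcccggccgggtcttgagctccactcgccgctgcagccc

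The S100a11 window held 2 TGANTCA matches, the Tagln2 window 2 GGAATG matches and the S100a6 window neither. Of 32851 promoter windows, 7.81% held TGANTCA, 14.7% held GGAATG and 1.63% held the CArG box of SRF, the factor that actin monomers keep in check through its cofactors. Sequences were found for 8 of the 12 genes named as higher, of which 1 held TGANTCA, 2 held GGAATG and 2 (Aspa and Gsto1) held a CArG box, and for 11 of the 12 named as lower, with 1, 2 and 0. A match is a description of the letters and not a measured binding site.

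Other S100 genes overlapped between the baits. S100a16 had 64.8, 69.2, 105 and 113 CPM in ACTB and 66.9, 10, 22.6 and 12.9 CPM in GFP, and S100a14 had 115, 18.4, 95.1 and 73.8 CPM in ACTB and 46.3, 7.51, 21.5 and 15.7 CPM in GFP. For S100a16 the overlap came from GFP replicate 1, and for S100a14 from ACTB replicate 2. S100a10, the partner of annexin A2 at the plasma membrane, was near level at 39.8, 68.7, 153 and 83.0 CPM in ACTB and 78.9, 81.0, 72.1 and 92.4 CPM in GFP. S100g, the calcium carrier calbindin-D9k of absorptive cells, had 12.7, 64.1, 8.51 and 2.46 CPM in ACTB and 4.20, 28.6, 59.7 and 63.6 CPM in GFP. Its highest ACTB library was replicate 2 and its lowest GFP library was replicate 1. S100a1 had 28.8, 75.4, 39.3 and 49.7 CPM in ACTB and 90.4, 80.9, 73.7 and 22.3 CPM in GFP. S100a13 was at 5.77 to 11.7 CPM in ACTB and 0.355 to 7.79 CPM in GFP, and S100b reached 5.92 CPM in ACTB replicate 2 but at most 0.953 CPM elsewhere. S100a3, S100a4, S100a5, S100a7a, S100a8 and S100z stayed at or below 1.85 CPM in every library.

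All 12 annexins were tested, 10 with positive and 2 with negative log2 fold changes (median 0.96). Without overlap, 2 had higher values in ACTB (1.68% of all genes at 1 CPM or more) and 1 had lower values (0.914%). Annexins bind acidic phospholipids in the presence of calcium. Anxa10, typical of gastric-type epithelium, had 847, 616, 668 and 397 CPM in ACTB, against 347, 65.9, 155 and 45.8 CPM in GFP (log2 fold change 2.04 ± 0.57, edgeR adjusted p = 0.814). Anxa8 had 55.1, 15.8, 107 and 43.5 CPM in ACTB, against 11, 0.0346, 0.105 and 2.13 CPM in GFP. In both genes GFP replicate 1 came nearest to the ACTB libraries.

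Anxa4, an annexin abundant in secretory and absorptive epithelium, was the exception in direction. It had 414, 477, 425 and 416 CPM in ACTB, against 644, 902, 708 and 793 CPM in GFP (means 433 ± 29.9 and 762 ± 112 CPM, SD, n = 4 each). The spread within each bait was small and GFP replicate 1 stood with its own group, unlike in most genes above. The log2 fold change was -0.82 ± 0.33 (edgeR adjusted p = 0.814, DESeq2 adjusted p = 0.0241), short of the fold threshold with either tool.

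Anxa1, the partner of S100a11, had 443, 160, 821 and 799 CPM in ACTB, against 397, 15.3, 124 and 62.2 CPM in GFP, with overlap at GFP replicate 1. Anxa3 showed the same overlap, at 614, 180, 714 and 464 CPM in ACTB and 537, 105, 125 and 92.3 CPM in GFP. Anxa2 had 791, 955, 855 and 1453 CPM in ACTB and 1039, 482, 552 and 696 CPM in GFP. Anxa7 had 314, 183, 230 and 300 CPM in ACTB and 202, 157, 119 and 113 CPM in GFP, again crossing where ACTB replicate 2 met GFP replicate 1. The remaining annexins, Anxa5, Anxa6, Anxa9, Anxa11 and Anxa13, had unadjusted p values from 0.075 to 0.72, and Anxa13, an enterocyte annexin, was highest among ACTB libraries in replicate 2 (255 CPM in ACTB replicate 2 and 3.55 to 21.9 CPM in the other ACTB libraries).

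**Figure D2:**
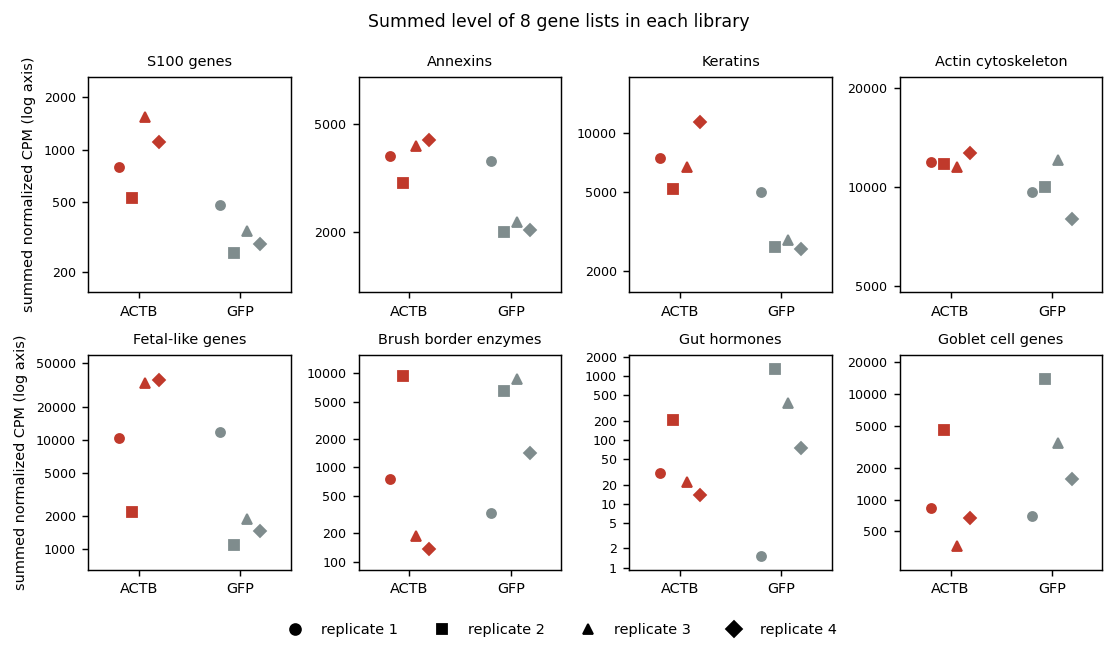
Summed normalized CPM (log axes) of 8 gene lists in each ACTB library (red, left) and each GFP library (gray, right), with marker shapes for replicate numbers. S100 genes and keratins do not overlap between the baits (531 to 1531 against 255 to 482 CPM, and 5174 to 11318 against 2591 to 5019 CPM), while in the brush border, hormone and goblet sums ACTB replicate 2 is the highest ACTB library and GFP replicate 1 the lowest GFP library.

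Keratins form the intermediate filaments of epithelium. Their sum was 7430, 5174, 6743 and 11318 CPM in ACTB, against 5019, 2634, 2876 and 2591 CPM in GFP. Of 11 tested members 9 were positive, 5 had an unadjusted p under 0.05 (3.22% of all genes were higher at it) and 3 of 8 at 1 CPM or more were without overlap (1.68% of all such genes), all with higher values in ACTB. The median log2 fold change was 1.06, and 0.93 to 1.63 with any library left out. Krt19 had 3293, 2270, 1800 and 4679 CPM in ACTB, against 1624, 648, 1185 and 1080 CPM in GFP. Krt8 had 1407, 1027, 1538 and 1678 CPM in ACTB, against 705, 761, 686 and 556 CPM in GFP. For Krt8 the lowest ACTB library was clear of the highest GFP library and GFP replicate 1 did not stand out (log2 fold change 1.06 ± 0.35, edgeR adjusted p = 0.814, DESeq2 adjusted p = 0.0408). Krt18, the partner of Krt8 in simple epithelium, had 1723, 805, 1983 and 2709 CPM in ACTB and 1582, 833, 644 and 513 CPM in GFP, where ACTB replicate 2 fell within the GFP range. Krt7, a keratin of ducts and stomach, had 641, 316, 1085 and 1863 CPM in ACTB and 535, 74.5, 105 and 211 CPM in GFP. Krt4, typical of stratified epithelium, was far lower at 32.8, 56.2, 5.42 and 8.53 CPM in ACTB and 3.22, 0, 0.105 and 3.01 CPM in GFP. Krt20, of mature enterocytes, had a log2 fold change of -0.03 ± 0.75.

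Several membrane proteins were among the leading genes. Fxyd3, a regulator of the sodium pump, had 116, 48.2, 211 and 106 CPM in ACTB, against 48.1, 10.8, 18.3 and 17.6 CPM in GFP. ACTB replicate 2 and GFP replicate 1 were all but equal there. Scnn1a, the alpha subunit of the epithelial sodium channel, had 29.1, 38.3, 15.1 and 31.8 CPM in ACTB, against 6.4, 1.32, 2.20 and 2.22 CPM in GFP. In this gene ACTB replicate 2 was the highest library, and the nearest values of the baits were 15.1 CPM in ACTB and 6.4 CPM in GFP. Its log2 fold change was 3.23 ± 0.86 (edgeR adjusted p = 0.814, DESeq2 adjusted p = 0.000998). Enpp5, a single-pass membrane protein of the nucleotide pyrophosphatase family, had 60.3, 47.3, 93.8 and 76.3 CPM in ACTB, against 17.9, 13.4, 8.58 and 25.4 CPM in GFP (edgeR adjusted p = 0.814, DESeq2 adjusted p = 0.0221). Bace2, a membrane protease named after its values were seen, had 107, 58.6, 84.2 and 125 CPM in ACTB, against 49.3, 9.17, 9.76 and 6.65 CPM in GFP.

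Among transmembrane mucins, Muc1, a tall mucin of glandular and gastric surfaces, had 1001, 309, 1009 and 1601 CPM in ACTB, against 245, 4.46, 88.9 and 58.7 CPM in GFP, with no overlap (log2 fold change 3.30 ± 1.02, edgeR adjusted p = 0.814). Muc4 had 48.3, 54.2, 40.4 and 113 CPM in ACTB and 49.2, 1.87, 2.65 and 21.4 CPM in GFP. Muc13 of the enterocyte brush border had 110, 569, 22.6 and 1.11 CPM in ACTB and 28.0, 654, 1375 and 244 CPM in GFP. Its highest ACTB library was again replicate 2. Muc3a had 0, 0.153, 0.129 and 0 CPM in ACTB, against 0.0298, 42.1, 15.1 and 7.89 CPM in GFP, and here even ACTB replicate 2, rich in brush border RNA, was near 0. DESeq2 called Muc3a lower (adjusted p = 0.00498) and edgeR did not (adjusted p = 0.814). Of the 8 mucins tested, 4 were positive and 4 negative (median log2 fold change 0.47). That median was 0.035 without ACTB replicate 3 and 1.34 without GFP replicate 4.

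Of 27 tetraspanins and partners, which gather other membrane proteins into microdomains, 26 were tested, 20 with positive and 6 with negative log2 fold changes (median 0.69). Cd37 had 1 count in all. Cd9 had 366, 133, 445 and 295 CPM in ACTB, against 148, 18.1, 23.4 and 56.6 CPM in GFP (log2 fold change 2.33 ± 0.63, edgeR adjusted p = 0.814), and GFP replicate 1 alone reached above ACTB replicate 2. Tspan14 had no overlap, with 83.4, 89.0, 84.3 and 68.1 CPM in ACTB and 43.3, 24.6, 42.1 and 52.4 CPM in GFP. Ptgfrn, a partner of Cd9 and Cd81, also had none, with 64.6, 77.1, 41.2 and 49.5 CPM in ACTB and 30.1, 22.8, 34.1 and 37.8 CPM in GFP. Neither gene had its highest GFP library in replicate 1. Tspan1 (151, 91.2, 152 and 176 CPM in ACTB, and 146, 7.61, 34.5 and 36.7 CPM in GFP) overlapped at GFP replicate 1. Tspan8, the abundant tetraspanin of gut epithelium, had 324, 383, 248 and 157 CPM in ACTB and 246, 190, 119 and 97.6 CPM in GFP. The abundant members Cd81, Cd63, Cd82, Tspan15, Tspan13 and Tspan3 had log2 fold changes of 0.08, -0.03, -0.21, 0.27, -0.08 and 0.05, and the tested members other than Cd9, Tspan14, Ptgfrn, Tspan1 and Tspan8 had unadjusted p values of 0.103 to 0.995. These further members were Cd151, Igsf8, Tspan4, Tspan9, Tspan2, Tspan17, Tspan33, Tspan18, Tspan32 and Cd53 with positive log2 fold changes, Tspan31, Tspan7 and Tspan6 with negative ones, and Tspan5 and Tspan12 at 0.10 and 0.00.

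Among 24 integrin, laminin and matrix contact genes, 21 were positive and 3 negative (median log2 fold change 0.86), with 2 at an unadjusted p under 0.05 (3.22% of all genes were higher at it) and none without overlap (1.68% of all genes at 1 CPM or more). Sdc4, a heparan sulfate proteoglycan at matrix contacts, had 242, 75.0, 225 and 156 CPM in ACTB and 58.3, 23.8, 66.8 and 91.6 CPM in GFP. Thbs1, the secreted matrix protein thrombospondin 1, had 290, 1.18, 467 and 1084 CPM in ACTB and 69.3, 8.03, 15.4 and 19.6 CPM in GFP. ACTB replicate 2 was the lowest of all 8 libraries for Thbs1 while the other ACTB libraries were the highest. Lamb3, a chain of laminin 332, had 127, 120, 177 and 424 CPM in ACTB and 192, 13.4, 48.6 and 44.4 CPM in GFP.

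Junction genes lay closer to the median of all genes. Of 20 adhesion and claudin genes 13 were positive and 7 negative, with a median of 0.20. Ctnnb1, beta-catenin, had 579, 227, 764 and 892 CPM in ACTB and 240, 349, 369 and 250 CPM in GFP, and Jup, plakoglobin, had 213, 260, 369 and 500 CPM in ACTB and 204, 138, 145 and 222 CPM in GFP. For Ctnnb1 ACTB replicate 2 was below all GFP libraries and the other ACTB libraries above them, and for Jup ACTB replicate 1 was within the GFP range. Cdh17, the liver-intestine cadherin of villus cells, spanned 3.40 to 991 CPM in ACTB and 92.2 to 1261 CPM in GFP, with ACTB replicate 2 as the ACTB maximum and GFP replicate 1 as the GFP minimum.

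Lipid-anchored surface proteins and Ly6 genes, listed together with a few transmembrane surface proteins such as Ceacam1, gave 13 positive and 3 negative log2 fold changes of 16 tested (median 0.96). Cd24a had 397, 46.6, 806 and 420 CPM in ACTB, against 93.2, 71.2, 115 and 69.3 CPM in GFP (log2 fold change 2.26 ± 0.61, edgeR adjusted p = 0.814). ACTB replicate 2 was below every GFP library, and without it the other ACTB libraries gave an edgeR adjusted p of 0.0441, the 1 higher call of that fit. Ly6a, the antigen Sca-1 of regenerating epithelium, had 390, 0.229, 1639 and 307 CPM in ACTB and 107, 14.3, 13.6 and 33.8 CPM in GFP. Ly6e had 834, 12.3, 1627 and 602 CPM in ACTB and 351, 86.7, 74.7 and 125 CPM in GFP, with ACTB replicate 2 again the lowest of the 8 for both. Ceacam1 had 77.5, 46.9, 33.6 and 119 CPM in ACTB and 36.0, 45.4, 8.23 and 19.7 CPM in GFP.

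Of 22 genes of the EGF family and receptor tyrosine kinases, 11 were positive and 11 negative (median 0.01). Ephb3, a receptor that keeps Paneth cells in the crypt base, was the only one with an unadjusted p under 0.05 (3.22% of all genes were higher at it). It had 39.5, 20.9, 45.2 and 163 CPM in ACTB and 36.5, 6.89, 3.42 and 33.2 CPM in GFP. Transporters leaned the other way, with 9 of 25 apical and 5 of 18 basolateral ones positive (medians -0.33 and -0.39). Without ACTB replicate 2 the apical median was -3.67, and without ACTB replicate 1 it was 0.07. Slc3a2, the heavy chain of amino acid exchangers, had 602, 248, 441 and 224 CPM in ACTB and 230, 242, 145 and 196 CPM in GFP. Slc40a1, the iron exporter ferroportin, had 99.4, 207, 31.1 and 35.6 CPM in ACTB and 66.2, 378, 252 and 273 CPM in GFP.

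**Figure D3:**
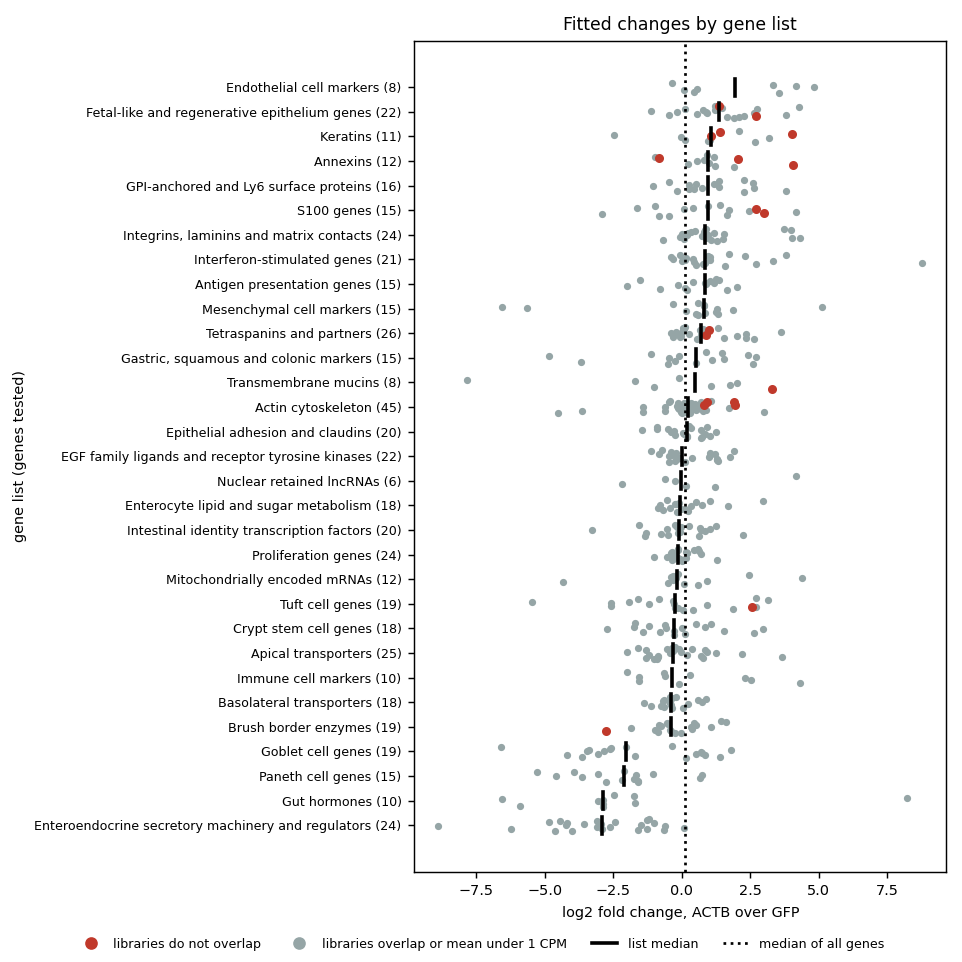
Log2 fold change, ACTB over GFP, of every tested member (points) of 31 gene lists, with list medians as black bars and the median of all genes (0.11) as a dotted line. Red points are genes whose ACTB and GFP libraries do not overlap; enteroendocrine genes have the lowest median (-2.92), and the list with the highest, the endothelial markers (1.95), holds 1 gene above 1 CPM.

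Most hormone RNAs had lower levels in ACTB than in GFP, and Pyy and Gast had higher ones, with none past the adjusted threshold of edgeR. Of 11 gut hormones on the list, Insl5 had no count in these libraries, 9 of the 10 tested had negative log2 fold changes and the median was -2.87. It was -1.01 without GFP replicate 2 and -4.64 without ACTB replicate 2. The hormone sum was 29.9, 201, 22.3 and 13.5 CPM in ACTB, against 1.55, 1261, 379 and 73.6 CPM in GFP. GFP replicate 1 thus had the least hormone RNA of all 8 libraries and GFP replicate 2 the most.

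Gip, the incretin of K cells, had 9.58, 53.1, 3.90 and 2.76 CPM in ACTB, against 0.0893, 414, 135 and 28.5 CPM in GFP. Cck, cholecystokinin of I cells, had 3.78, 35.6, 7.10 and 0.0293 CPM in ACTB, against 0, 223, 94.6 and 22.6 CPM in GFP. Gcg, which encodes the GLP-1 of L cells, had 0, 43.9, 0.194 and 0 CPM in ACTB, against 0, 277, 42.0 and 1.24 CPM in GFP. In each of these ACTB replicate 2 was the highest ACTB library and lay inside the GFP range. Sst, somatostatin of D cells, had 11.4, 23.8, 1.26 and 1.03 CPM in ACTB and 0.298, 149, 52.6 and 3.81 CPM in GFP. Tac1, tachykinin of enterochromaffin cells, had 0, 18.6, 1.39 and 0 CPM in ACTB and 0.0298, 123, 14.5 and 8.42 CPM in GFP. Ghrl, ghrelin of X cells, reached 17.3 CPM in ACTB and 44.9 CPM in GFP, and Sct, secretin, reached 8.59 CPM in ACTB and 20.1 CPM in GFP. The unadjusted p values of these 7 genes were 0.164 to 0.407. Nts, neurotensin, with 4 counts in the 4 ACTB libraries and 210 in the 4 GFP libraries (179 of them in replicate 2), and Gal, galanin, with 1 count and 128 counts (all in replicate 2), had unadjusted p values of 0.0237 and 0.0279. Without GFP replicate 2 the log2 fold change of Nts was -4.57, against -5.91 with all libraries, and Gal could not be fitted.

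Pyy, peptide YY of L cells, was the hormone with the opposite order. It had 156, 0, 176 and 200 counts in ACTB (3.78, 0, 5.68 and 5.87 CPM), against 1, 0, 0 and 0 counts in GFP. All ACTB libraries but replicate 2 thus held Pyy RNA that was at 0 to 1 counts in GFP, although Gcg, made by the same cell type, was at 0 to 0.194 CPM in those 3 libraries. A count of 0 in GFP replicate 4 allows up to 0.266 CPM. DESeq2 called Pyy higher (adjusted p = 0.0158) and edgeR did not (adjusted p = 0.814).

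Gast, gastrin of the G cells of the stomach and duodenum (chromosome 11, 100334407 to 100336996, plus strand), was not on the list and was picked after its values were seen. It had 972, 29, 81 and 230 counts in ACTB (23.5, 1.11, 2.61 and 6.74 CPM), against 3, 1, 0 and 0 counts in GFP. Every ACTB library was above every GFP library, including replicate 2 with its high Gip and Gcg. DESeq2 called it (adjusted p = 5.1e-05), and edgeR did not (adjusted p = 0.814).

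The secretory machinery and regulators of enteroendocrine cells followed the main hormones, with 23 of 24 tested members negative, 5 of them at an unadjusted p under 0.05 and none positive at it (against 2.4% of all genes lower at that p). Their median log2 fold change was -2.92, -1.33 without GFP replicate 2 and -3.79 without ACTB replicate 2. The granule protein genes Chga and Chgb had 10.2, 49.2, 8.87 and 19.6 CPM and 125, 213, 27.5 and 35.6 CPM in ACTB. In GFP they had 0.477, 550, 58.7 and 42.1 CPM and 1.58, 2521, 609 and 287 CPM. Neurog3, the factor that starts the lineage, was at 0 to 0.0968 CPM in ACTB and at 14.2 CPM in GFP replicate 2, with 0 in the other GFP libraries. Pax4, a later factor, was at 0 to 0.0242 CPM in ACTB and at 19.9 CPM in GFP replicate 3, with at most 0.62 CPM in the other GFP libraries. The log2 fold change of Neurog3 was -6.24, and 3.48 without GFP replicate 2, while that of Pax4 was -8.87, and -4.48 without GFP replicate 3.

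**Figure D4:**
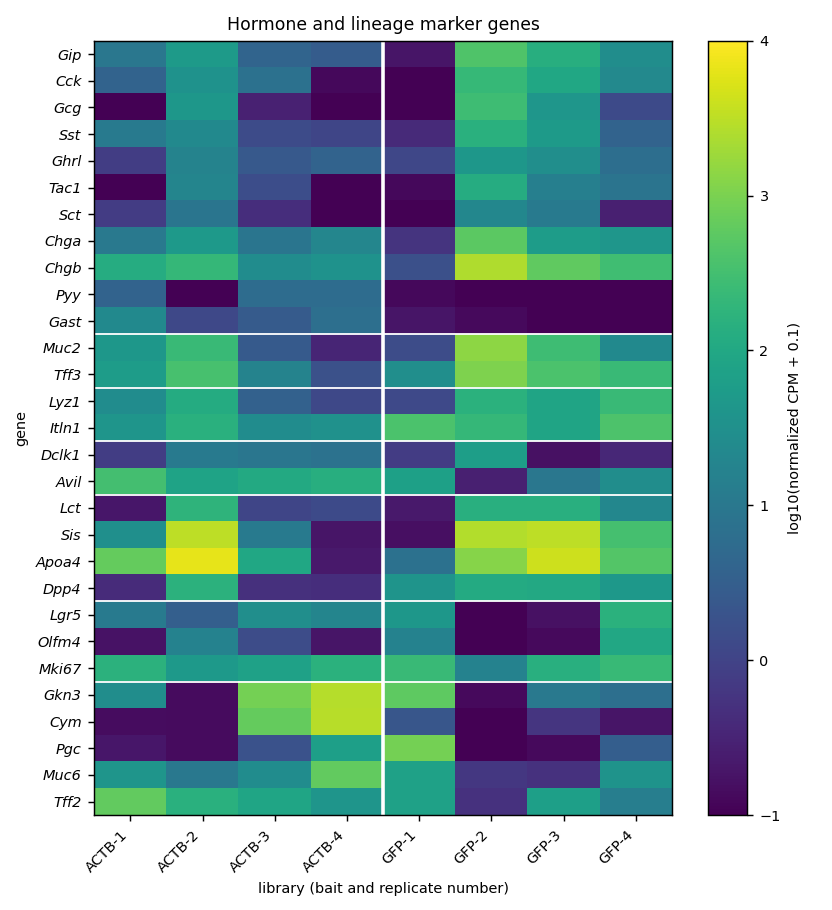
Level of 29 hormone and lineage marker genes (rows, log10 of normalized CPM plus 0.1, color scale) in the 4 ACTB libraries (left of the white line) and the 4 GFP libraries (right). White lines divide enteroendocrine, goblet, Paneth, tuft, enterocyte, crypt and gastric-type genes. Gkn3, drawn with the gastric-type genes, is counted in the crypt stem cell list. ACTB replicate 2 carries the enterocyte genes Sis (3107 CPM) and Lct (181 CPM) like GFP replicates 2 and 3. GFP replicate 1 lacks them (0.0596 and 0.119 CPM).

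Goblet cell genes had a median log2 fold change of -2.02 (7 positive and 12 negative of 19), -0.44 without GFP replicate 2. Their sum was 825, 4622, 361 and 675 CPM in ACTB and 705, 13936, 3436 and 1580 CPM in GFP. Muc2, the gel-forming mucin, had 44.7, 240, 2.45 and 0.235 CPM in ACTB and 1.37, 1412, 278 and 23 CPM in GFP, and Tff3, trefoil factor 3, had 58.8, 347, 17.4 and 1.67 CPM in ACTB and 29.1, 1073, 378 and 242 CPM in GFP. Both were highest in GFP replicate 2, the library with most hormone RNA, and within ACTB in replicate 2.

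Paneth cell genes were negative in 13 of 15 tested (median -2.10), and 5 of the 15 lay below 1 CPM on average. Itln1, intelectin 1, had the smallest unadjusted p (0.00371), with 40.6, 148, 27.3 and 34.3 CPM in ACTB and 380, 217, 82.7 and 394 CPM in GFP. Only ACTB replicate 2 and GFP replicate 3 crossed. Lyz1, Paneth lysozyme, had 27.5, 120, 3.55 and 1.11 CPM in ACTB and 1.16, 157, 81.3 and 247 CPM in GFP, so it did not share the high level of Itln1 in GFP replicate 1. Mmp7, which matures Paneth defensins, was at 0.0764 to 46.7 CPM in ACTB and was highest in GFP replicate 1, at 307 CPM.

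Tuft cell genes had no common direction (8 positive and 11 negative, median -0.24). Avil, advillin, an actin-bundling protein of tuft cells and so a link to the actin genes above, had 314, 78.5, 107 and 135 CPM in ACTB, against 68.9, 0.173, 9.52 and 28.5 CPM in GFP, without overlap (edgeR adjusted p = 0.814). Dclk1 and Trpm5, which mark tuft cells more strictly, were at 0.702, 11.4, 9.29 and 7.42 CPM and 11.5, 3.44, 29.1 and 78.2 CPM in ACTB. In GFP they were at 0.685, 64.8, 0.0697 and 0.266 CPM and 43.9, 55.5, 18.8 and 26.2 CPM, so neither had the order of Avil.

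Crypt genes overlapped widely. Of 18 stem cell genes 8 were positive and 10 negative (median -0.29), and of 24 proliferation genes 10 were positive and 14 negative (median -0.14). Lgr5, the stem cell receptor, had 10.8, 3.13, 30.0 and 18.7 CPM in ACTB and 43.4, 0, 0.0697 and 159 CPM in GFP, and Olfm4 had 0.0726, 16, 1.35 and 0.088 CPM in ACTB and 16.1, 0, 0.0349 and 99.4 CPM in GFP. Mki67, of dividing cells, had 164, 49.0, 72.6 and 153 CPM in ACTB and 248, 16.5, 141 and 236 CPM in GFP. GFP replicates 1 and 4 held most of the crypt RNA in their group. The stem cell list also holds Gkn3, which made up much of its sum in ACTB replicates 3 and 4 (899 of 1549 CPM and 2715 of 3596 CPM).

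Enterocyte genes varied widely within each bait. Genes of lipid and sugar metabolism summed to 2438, 64789, 754 and 615 CPM in ACTB and 820, 19570, 57858 and 6101 CPM in GFP, with a median log2 fold change of -0.07 that became -3.81 without ACTB replicate 2. Sis, sucrase-isomaltase, had 30.8, 3107, 11.2 and 0.088 CPM in ACTB and 0.0596, 2624, 3203 and 330 CPM in GFP. Apoa4, of chylomicrons, had 660, 6533, 94.2 and 0.117 CPM in ACTB and 7.21, 1257, 4070 and 461 CPM in GFP. Dpp4, the gene of the apical bait of the series, had 0.315, 164, 0.387 and 0.352 CPM in ACTB and 37.8, 113, 106 and 47.2 CPM in GFP. It was thus present in GFP replicate 1, where Sis and Lct were near 0, and without ACTB replicate 2 it was among the 9 edgeR calls lower in ACTB (log2 fold change -7.74, adjusted p = 0.00137).

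Genes of fetal-like and regenerating epithelium had the opposite layout. Of 22 tested, 19 were positive and 3 negative (median 1.35), and the median lay between 1.04 and 2.32 with any library left out. At an unadjusted p under 0.05 there were 4, all with higher values in ACTB (3.22% of all genes). Of these 4, S100a6 and Krt7 were also counted in the S100 and keratin lists above, so these lists are not separate results. Clu, clusterin, a mark of revival stem cells, had 6151, 711, 24255 and 28032 CPM in ACTB and 7778, 4.98, 733 and 407 CPM in GFP. GFP replicate 1 was within the ACTB range and ACTB replicate 2 within the GFP range. Emp1, a membrane protein that marks injured and fetal-like epithelium, was without overlap at 189, 182, 163 and 168 CPM in ACTB and 116, 50.4, 49.7 and 61.6 CPM in GFP. Sox4 and Sox21 are not on this list. Sox4, counted among the intestinal transcription factors, had 250, 12, 503 and 451 CPM in ACTB and 49.4, 59.0, 37.2 and 113 CPM in GFP. Sox21, named after its values were seen, had no overlap, at 145, 42.3, 67.2 and 148 CPM in ACTB and 32.1, 0.934, 6.48 and 16.5 CPM in GFP.

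Gastric-type RNAs varied widely between libraries of each bait. Cym, chymosin, the milk-clotting protease of the young stomach, was chosen after its values were seen and had 0.0484, 0.0382, 662 and 2887 CPM in ACTB, against 2.11, 0, 0.488 and 0.0886 CPM in GFP. Pgc, pepsinogen C, was at 67.4 CPM in ACTB replicate 4 and at 885 CPM in GFP replicate 1, with at most 3.01 CPM elsewhere. Gkn3, described here but counted in the crypt stem cell list, had 27.8, 0.0382, 899 and 2715 CPM in ACTB and 564, 0.0346, 10.2 and 6.47 CPM in GFP. Muc6, the mucin of gastric and duodenal glands, had 39.8, 9.74, 27.0 and 636 CPM in ACTB and 71.9, 0.554, 0.418 and 36.2 CPM in GFP, and Tff2 had 627, 149, 85.0 and 40.5 CPM in ACTB and 71.4, 0.415, 65.0 and 13.9 CPM in GFP. No library was high for all of these, and GFP replicate 2 was near 0 for each. Of 15 gastric, squamous and colonic markers tested, 8 were positive and 7 negative (median 0.52, -0.10 without ACTB replicate 4 and 1.91 without GFP replicate 1). Their sum was 3455, 7489, 235 and 1510 CPM in ACTB and 4274, 9.69, 2283 and 192 CPM in GFP. ACTB replicate 2 thus had the highest sum of the 8 libraries, although Pgc, Muc6 and Tff2 made up little of it there. Members not described here made up the rest, so the genes shown do not give the layout of the whole list. Among 20 intestinal transcription factors 8 were positive and 12 negative (median -0.10), and Hnf4a had 133, 554, 104 and 174 CPM in ACTB and 193, 449, 459 and 521 CPM in GFP.

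Interferon-stimulated and antigen presentation genes were high in some libraries of each bait. The interferon sum was 1971, 1121, 3413 and 101 CPM in ACTB and 187, 2124, 1768 and 177 CPM in GFP, and the antigen presentation sum was 2001, 2326, 6015 and 943 CPM in ACTB and 653, 2182, 2268 and 574 CPM in GFP. ACTB replicate 4 and GFP replicates 1 and 4 had the least of both. The median log2 fold changes were 0.84 for both lists, and without ACTB replicate 3 they were 0.08 and 0.22. Gbp3, a guanylate-binding protein, had 14.9, 0.535, 71.9 and 0 CPM in ACTB and at most 0.138 CPM in GFP.

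Markers of cells outside the epithelium were at low levels. Their sums were 18.8 to 71.8 CPM in ACTB and 29.7 to 125 CPM in GFP for immune cells (10 genes tested), 1.23 to 29.3 and 0.488 to 25.3 CPM for endothelial cells (8 genes), and 3.86 to 8.65 and 0.383 to 44.7 CPM for mesenchymal cells (15 genes). Cd3e, Cd8a, Tie1 and Cldn5 had at most 2 counts in total. The mesenchymal maximum was GFP replicate 2, with Vim at 34.5 CPM and Pdgfrb at 8.41 CPM against at most 0.161 CPM in the other 7 libraries. Among mitochondrially encoded mRNAs mt-Cytb had 7871, 25153, 2824 and 6246 CPM in ACTB and 4281, 20521, 21017 and 6492 CPM in GFP. By contrast mt-Co2, mt-Co3 and mt-Atp6 stayed at or below 0.458 CPM in every library, as counted by the authors, so this class cannot be read gene by gene. Malat1, retained in the nucleus, had 7106, 2870, 2163 and 3008 CPM in ACTB and 3650, 8786, 4889 and 6048 CPM in GFP.

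The remaining genes named by the rule as higher in ACTB were Cblc, Aspa, Gm14546 and Gsto1. Cblc, an epithelial ubiquitin ligase for receptors, had 144, 100, 111 and 141 CPM in ACTB, against 51.9, 11.5, 23.5 and 39.0 CPM in GFP. It was even over the ACTB libraries and clear of the GFP ones. Aspa, aspartoacylase, had 37.5, 9.89, 53.7 and 24.7 CPM in ACTB, against 3.22, 0.104, 1.5 and 0.266 CPM in GFP (DESeq2 adjusted p = 0.00712). Gsto1, a glutathione transferase, had 1057, 712, 1567 and 696 CPM in ACTB, against 490, 206, 412 and 262 CPM in GFP. Its reads cannot be told from those of Cfap43, which lies across it on the other strand of chromosome 19 and had nearly the same values (1103, 706, 1539 and 716 CPM in ACTB), since the Nextera kit does not keep strand. Likewise Gm14546 is the antisense partner of Akr1b3, an aldose reductase: they had 46.8, 42.3, 93.8 and 46.1 CPM and 45.7, 45.2, 104 and 48.1 CPM in ACTB.

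Some genes named after their values were seen had little spread. Snrpa, a protein of the U1 splicing particle, had 81.4, 81.8, 94.6 and 96.5 CPM in ACTB and 43.8, 34.3, 47.4 and 35.1 CPM in GFP, and Csnk2b, the regulatory subunit of casein kinase 2, had 57.8, 38.4, 62.7 and 64.6 CPM in ACTB and 21.9, 21.2, 26.1 and 22.9 CPM in GFP. Among ACTB libraries Csnk2b was lowest in replicate 2, which had the most brush border RNA of them, and Snrpa was lowest in replicates 1 and 2. In GFP replicate 1, poor in brush border RNA, both genes lay within the range of the other GFP libraries. Sqor, of sulfide oxidation in mitochondria, had 120, 123, 110 and 76.4 CPM in ACTB and 54.8, 39.3, 50.2 and 43.3 CPM in GFP. DESeq2 called all 3 (adjusted p = 0.0024, 0.0119 and 0.00999).

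Genes lower in ACTB were led by Soat1, which esterifies cholesterol in the endoplasmic reticulum (chromosome 1, 156424525 to 156474331, minus strand). It had 91.5, 153, 82.7 and 81.5 CPM in ACTB, against 277, 282, 282 and 199 CPM in GFP (means 102 ± 33.9 and 260 ± 40.5 CPM, SD, n = 4 each). The log2 fold change was -1.35 ± 0.37 (edgeR adjusted p = 0.814, DESeq2 adjusted p = 0.00999) and lay between -1.61 and -1.26 with any library left out. GFP replicate 1, poor in enterocyte RNA, had the same Soat1 level as GFP replicates 2 and 3.

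Tmem237, of the ciliary transition zone, had 9.05, 11, 14.4 and 11.7 CPM in ACTB, against 19.1, 40.4, 42.3 and 103 CPM in GFP. Jag1, a Notch ligand, had 49.0, 77.6, 45.8 and 52.2 CPM in ACTB, against 97.2, 252, 123 and 87.8 CPM in GFP. Kif13a, a kinesin that carries endosomal cargo, had 57.7, 41.4, 19.4 and 31.2 CPM in ACTB, against 60.3, 168, 102 and 98.8 CPM in GFP. For Kif13a the nearest libraries were replicate 1 of each bait, all but equal. Inpp5a, an inositol phosphate phosphatase, had 71.4, 93.9, 27.6 and 61.3 CPM in ACTB, against 127, 307, 122 and 145 CPM in GFP, and Uspl1 had 30.5, 22.3, 33.6 and 54.4 CPM in ACTB, against 75.8, 79.8, 95.2 and 97.8 CPM in GFP. The other genes named as lower, Phactr2, Elf4, Men1, A330040F15Rik, Tbc1d8 and Cops7b, had log2 fold changes of -2.98 to -1.5. Phactr2 binds actin and protein phosphatase 1 and had 23, 6.87, 10 and 6.72 CPM in ACTB, against 26.2, 47.1, 62.3 and 33.7 CPM in GFP.

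Hsd17b2, Mmp14 and Cyp2c70, named after their values were seen, were lower in every ACTB library than in every GFP library. Of these only Cyp2c70 was close to absent in all ACTB libraries. Hsd17b2, which inactivates sex steroids, had 0.145, 4.89, 0.258 and 0.088 CPM in ACTB, against 16.9, 14.3, 14.1 and 30.2 CPM in GFP. Mmp14, a membrane-bound metalloprotease, had 0.533, 0, 1.74 and 3.90 CPM in ACTB, against 26.6, 6.58, 25.9 and 20.7 CPM in GFP. Unlike the enterocyte genes, both were at full level in GFP replicate 1, though Hsd17b2, like them, was highest among ACTB libraries in replicate 2. Cyp2c70 and Dach1 were lowest among GFP libraries in replicate 1. Cyp2c70 had 0.0726, 0, 0 and 0.0293 CPM in ACTB and 0.387, 5.16, 7.6 and 10.5 CPM in GFP. Dach1 had 0.419 to 2.29 CPM in ACTB and 1.40, 25.0, 42.3 and 29.1 CPM in GFP.

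The annotated exon length of a gene, all exons of all its transcripts joined, went with direction. It is not the length of the RNAs that were captured. Genes higher in ACTB without overlap had a median exon length of 2915 bases (245 genes) and those lower had 5142 bases (133 genes), against 3967 bases over 14544 genes at 1 CPM or more. Their median levels were 27 and 36 CPM, against 24.3 CPM. The part of library quality or labeling in this was not tested.

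The apical bait APEX2-DPP4 gives another set of libraries, here scaled together with the others (12 in all). Of the 245 genes with ACTB wholly above GFP, 65 also had ACTB wholly above DPP4. Of the 133 genes wholly below GFP, 23 were also wholly below DPP4. Leading genes were among those that overlapped: Tagln2, S100a11 and Krt8 had 250, 24.4 and 1067 CPM in DPP4 replicate 4. In ACTB replicate 2 they had 215, 15.4 and 975 CPM. Tmsb4x had 39.1, 139, 25.5 and 94.0 CPM in DPP4 and 419, 281, 478 and 472 CPM in ACTB, with 119, 83.0, 158 and 85.0 CPM in GFP. Muc1 had 0.598, 0.365, 34.8 and 18.3 CPM in DPP4 and 932, 293, 967 and 1558 CPM in ACTB, with 240, 4.28, 82.9 and 55.7 CPM in GFP. S100a6 reached 265 CPM in DPP4 replicate 4, above ACTB replicate 2 (190 CPM), and was at 7.05 to 20.4 CPM in the other DPP4 libraries. Gast was at most 0.0854 CPM and Pyy 0.13 to 0.342 CPM in DPP4, below the ACTB libraries in which they were found. Soat1 did not set DPP4 with GFP: it had 49.5, 103, 45.8 and 148 CPM in DPP4 and 85.2, 145, 79.2 and 79.3 CPM in ACTB, with 271, 270, 263 and 189 CPM in GFP.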

How the data were processed

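Biotinylated RNA of 14 sIO libraries was sequenced from Nextera XT libraries. The deposited values are raw read counts per gene: the authors trimmed adapters with cutadapt 4.0, checked reads with FastQC 0.11.9, aligned with STAR 2.7.9a to mm10 and counted with HTSeq 1.99.2. These raw counts carried no batch correction, and 0 columns belonged to other samples. Whether the libraries that the study removed are among the 14 is not stated in the sources used here. All but 260 of 55401 gene IDs received a symbol from the annotation used here (GRCm38).

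Libraries were grouped by label. Genes with at least 5 counts over the 8 libraries were tested with edgeR 4.0.16 (R 4.3.3, TMM scaling, robust quasi-likelihood test, no covariate, Benjamini-Hochberg adjustment), at an adjusted p under 0.05 and an absolute log2 fold change over 1. SE is the fold change divided by the root of the F statistic. The study removed libraries and corrected for preparation date, but the libraries and dates are not named in the sources used here, so neither step was repeated. Alternatives were DESeq2 1.42.0, other filters, other scaling, 12 libraries for the dispersion, the replicate number as a block, and each library left out. The test was checked only on simulated counts that varied far less between libraries than these. Here the common coefficient of variation between libraries was 1.21, so that check does not show the test's power on these data. The precision set by depth is given as the CPM of 3 counts.

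The 31 gene lists (566 genes) and the members were chosen with earlier results of these data known. Genes were taken for naming by rule from Actb, every hormone, S100, annexin and tetraspanin gene with a value, up to 4 genes per direction of each other list with the smallest p, and up to 12 genes per direction with the smallest p among those at 10 CPM or more without overlap. Not every gene that meets the rule is described. Further list members (Actg1, Krt18, Sis, Lct, Apoa4, Chga, Chgb, Muc2, Tff3, Lyz1, Mmp7, Dclk1, Trpm5, Lgr5 and Clu) and genes outside the lists (such as Gast and Cym) were chosen after their values were seen.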

Additional observations from a re-analysis of the deposited data

Results flagged for a closer look

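Within each bait, the highest or lowest of the 4 libraries was set against the gap to its nearest neighbor on the scale of log2 (CPM plus 0.5), for the genes with values in the text. For normally spread values chance alone marks about 1 in 20 groups, and 36 of 338 groups were marked here. Groups with counts in 1 library only are marked by construction, and some genes were chosen after their values were seen. The number marked therefore cannot be read as an excess over chance.

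In ACTB replicate 2, Dpp4 was at 164 CPM (0.315 to 0.387 CPM in the other ACTB libraries), Gcg at 43.9 CPM (0 to 0.194) and Hsd17b2 at 4.89 CPM (0.088 to 0.258), while Pyy was at 0 CPM (3.78 to 5.87) and Anxa5 at 48.9 CPM (179 to 230). In ACTB replicate 3, Cfl1 was at 306 CPM (204 to 212 CPM in the others), Akr1b3 at 104 CPM (45.2 to 48.1), its antisense partner Gm14546 at 93.8 CPM (42.3 to 46.8) and Cd53 at 2.19 CPM (0 to 0.088).

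In GFP replicate 1, Anxa3 was at 537 CPM (92.3 to 125 CPM in the other GFP libraries), Cdh17 at 92.2 CPM (832 to 1261), Hnf4a at 193 CPM (449 to 521), Dach1 at 1.4 CPM (25.0 to 42.3), Tspan2 at 8.28 CPM (0 to 0.266) and S100a7a at 1.85 CPM (0 to 0.0886). In GFP replicate 2, Dclk1 was at 64.8 CPM (0.0697 to 0.685 CPM in the other GFP libraries), Vim at 34.5 CPM (0 to 0.0298) and Pdgfrb at 8.41 CPM (0 to 0.0697), and Neurog3 at 14.2 CPM, Ccl9 at 10.3 CPM and Gal at 4.43 CPM were each at 0 in the others. In GFP replicate 4, the shallowest library, S100a1 was at 22.3 CPM (73.7 to 90.4), Soat1 at 199 CPM (277 to 282) and Cd82 at 166 CPM (256 to 279).

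The remaining ones were below 1 CPM, in each case beside libraries at or near 0. They were Pax4 at 0.0242 CPM and S100a3 at 0.339 CPM in ACTB replicate 1, Ccl9 at 0.088 CPM, S100a8 at 0.088 CPM and Gal at 0.0293 CPM in ACTB replicate 4, S100a3 at 0.238 CPM, S100z at 0.209 CPM, S100a8 at 0.179 CPM and Pyy at 0.0298 CPM in GFP replicate 1, mt-Co2 at 0.311 CPM and mt-Atp6 at 0.242 CPM in GFP replicate 2, and Tspan32 at 0.177 CPM in GFP replicate 4.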

How the results depend on the processing

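The count of edgeR calls stayed at 0 in each direction without a filter, with filterByExpr, with DESeq2 size factors, with dispersion from 12 libraries and with the replicate block, and DESeq2 called 37 higher and 36 lower. With each library left out it was 0 to 1 higher and 0 to 9 lower (9 without ACTB replicate 2). Genes at an unadjusted p under 0.05 numbered 244 higher and 209 lower with filterByExpr, which tests fewer genes (15318), and 428 to 1256 higher and 315 to 1117 lower with each library left out. Genes without overlap numbered 302 to 841 higher and 222 to 581 lower with each library left out, where fewer libraries have to be kept apart. Samples with the same replicate number did not deviate together (r = 0, 0.264, -0.086 and 0.12 for replicates 1 to 4, across genes), so the numbers do not pair the libraries; the replicate block gave 518 higher and 281 lower at an unadjusted p under 0.05.

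List medians moved by more than the replicate spread when a library was left out for enteroendocrine genes (-3.79 to -1.33), S100 genes (0.18 to 2.34), tetraspanins (0.27 to 0.79), lipid-anchored surface proteins (0.75 to 2.04), apical transporters (-3.67 to 0.066), basolateral transporters (-0.93 to -0.20), lipid and sugar genes (-3.81 to 1.00), goblet genes (-3.67 to -0.43), tuft genes (-0.46 to 1.7), immune markers (-0.70 to 0.66), endothelial markers (0.16 to 2.30, and 0.041 with filterByExpr) and mesenchymal markers (0.038 to 1.14, and 1.02 with the replicate block). Log2 fold changes turned their sign with the replicate block for S100a10 (-0.082), Pgc (2.81), Neurog3 (1.03), Apoa4 (-1.55), Dclk1 (2.24), Lgr5 (2.03), Cd63 (0.085), Vim (1.02) and Tspan6 (0.48), and for Tspan12 without a filter (-0.003), with filterByExpr (-0.032), with DESeq2 size factors (-0.06) and with DESeq2 (-0.059). Over the libraries left out they spanned zero for S100a10 (-0.37 to 0.32), S100a3 (-3.91 to 4.39), S100a5 (-0.192 to 2.36), S100a7a (-3.57 to 1.32), S100b (-1.51 to 4.84), Anxa11 (-0.074 to 1.24), Krt20 (-1.37 to 0.295), Pgc (-8.49 to 4.12), Muc6 (-0.096 to 3.85), Neurog3 (-6.88 to 3.48), Apoa4 (-2.53 to 1.66), Dclk1 (-1.61 to 4.38), Trpm5 (-1.30 to 0.132), Lgr5 (-2.22 to 0.114), Vim (-6.97 to 2.50), Pdgfrb (-7.17 to 0.089), mt-Cytb (-1.21 to 0.013), Cd53 (-0.204 to 4.26), Cd63 (-0.27 to 0.262), Cd81 (-0.194 to 0.24), Cd82 (-0.854 to 0.035), Tspan3 (-0.245 to 0.29), Tspan5 (-0.044 to 0.282), Tspan6 (-0.634 to 0.302), Tspan7 (-0.496 to 0.168), Tspan12 (-0.252 to 0.499) and Tspan13 (-0.627 to 0.17). The cause of these shifts was not tested. The other genes refitted kept their direction under the alternatives in which they could be fitted.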
